A study of Arabidopsis thaliana with 30 samples.

Results

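AT1G51830, AT1G51840, AT1G51850 and AT1G51860 are 4 kinase genes that lie next to each other on chromosome 1 of Arabidopsis thaliana, in a run of leucine-rich repeat receptor kinase genes. They were matched by locus in the probe annotation of the arrays, which named 13355 genes. Each of the 4 had 1 probe set, and all 4 were among the 9321 genes whose signal was high enough to be tested. The 4 had been chosen from results of these same arrays, and the comparison that chose them is not stated. Their levels, differences, counts and ranks are therefore given as a description, with no p-value, and nothing is read from how many of the 4 were called.

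Leucine-rich repeat receptor kinases sit in the plasma membrane, with repeats outside the cell that can bind a ligand or a partner receptor and a kinase domain inside that passes the signal on. The subfamily known as LRR-I also carries a malectin-like domain outside the cell, and many of its genes stand in tandem arrays, which arise by local duplication. Members of this subfamily are known in immunity: IOS1, the gene AT1G51800 of the same gene run, takes part in the perception of microbial patterns. RHS6, the gene AT1G51880 of the run, is named for root hair specific expression. The RefSeq gene table gives the 4 genes described here no symbol, so no role is given to them.

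Roots of 1-week-old seedlings of the accession Col-0 were profiled on 30 single-colour arrays, in 10 groups of 3. Seedlings had received the auxin indole-3-acetic acid (IAA, the main natural auxin) at 5 µM for 2 h, or the solvent alone (mock). After treatment, walls were digested for 1 h and the cells that carried a green fluorescent reporter were sorted. Each of 4 cell populations gave an auxin and a mock group: the stele (line pWOL::GFP), the xylem-pole pericycle (enhancer trap E3754), the epidermis with the lateral root cap (pWER::GFP) and the columella of the root cap (enhancer trap PET111). Undigested roots, called intact roots here, formed the other 2 groups, auxin and mock. Per the series' design text the digestion medium also held 5 µM IAA, and it does not say whether that of mock seedlings did. Digestion, sorting and exposure cannot be told apart in a comparison of sorted cells with intact roots. The reporter lines set which cells each sorted sample holds, and cortex and endodermis were not sorted.

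Signals had been scaled to a trimmed mean of 250.0 on every array, with medians between 54.4 and 82.9. Within groups, Pearson r between arrays was 0.938 to 0.982 across genes, which are not independent replicates. All 6 early auxin-response genes that served as a check of the labels rose with auxin in the sorted tissues and in intact roots, with median log2 differences of 4.64 and 4.82. Of 9 epidermis markers listed, EXPA7 and EXPA18, both expansins of root hair cells, were named on the arrays. Their summed signal was 508 to 708 in mock epidermis cells, against 131 to 283 in mock stele, 97.0 to 327 in mock pericycle and 179 to 395 in mock columella cells. With auxin the sums were 29.9 to 55.1 in epidermis, 15.9 to 50.7 in stele, 11.5 to 62.5 in pericycle and 13.7 to 28.5 in columella cells. These markers thus set mock epidermis apart, but did not separate auxin-treated epidermis from auxin-treated stele or pericycle. No listed marker of stele, pericycle or root cap had a named probe set, so those labels were not checked by markers.

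Throughout, a difference is on the scale log2(signal + 16) and the ± after it is its standard error from a limma fit of all 30 arrays. A gene was called when its Benjamini-Hochberg adjusted p over the 9321 genes was under 0.05. Signals are on the linear array scale, and the ± after a mean signal is the SD of 3 arrays. Each gene was assigned its own probe set, so a gene's signals are compared between samples and not with those of another gene. Whether a probe set also binds transcripts of a similar neighbouring gene was not tested. No detection calls were used. The 40th percentile of the arrays lay between 27.4 and 50.3 units, and signals near or below that range are close to the low end of the scale. In samples of many cells, fewer cells that express a gene and less RNA per cell cannot be told apart.

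The 4 genes split into pairs in the sorted tissues. AT1G51830 and AT1G51840 were near the low end of the scale in mock cells and higher on every auxin array of every sorted tissue. AT1G51850 and AT1G51860 ran the other way, with lower signals on every auxin array than on any mock array of the same tissue. In intact roots no gene of the 4 was called with auxin. AT1G51830, AT1G51840 and AT1G51860 also stood more than 16-fold lower in mock sorted tissues than in mock intact roots. AT1G51850 kept a high signal in mock epidermis and columella cells, while its mock stele and pericycle arrays lay below all mock intact root arrays.

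**Figure D1:**
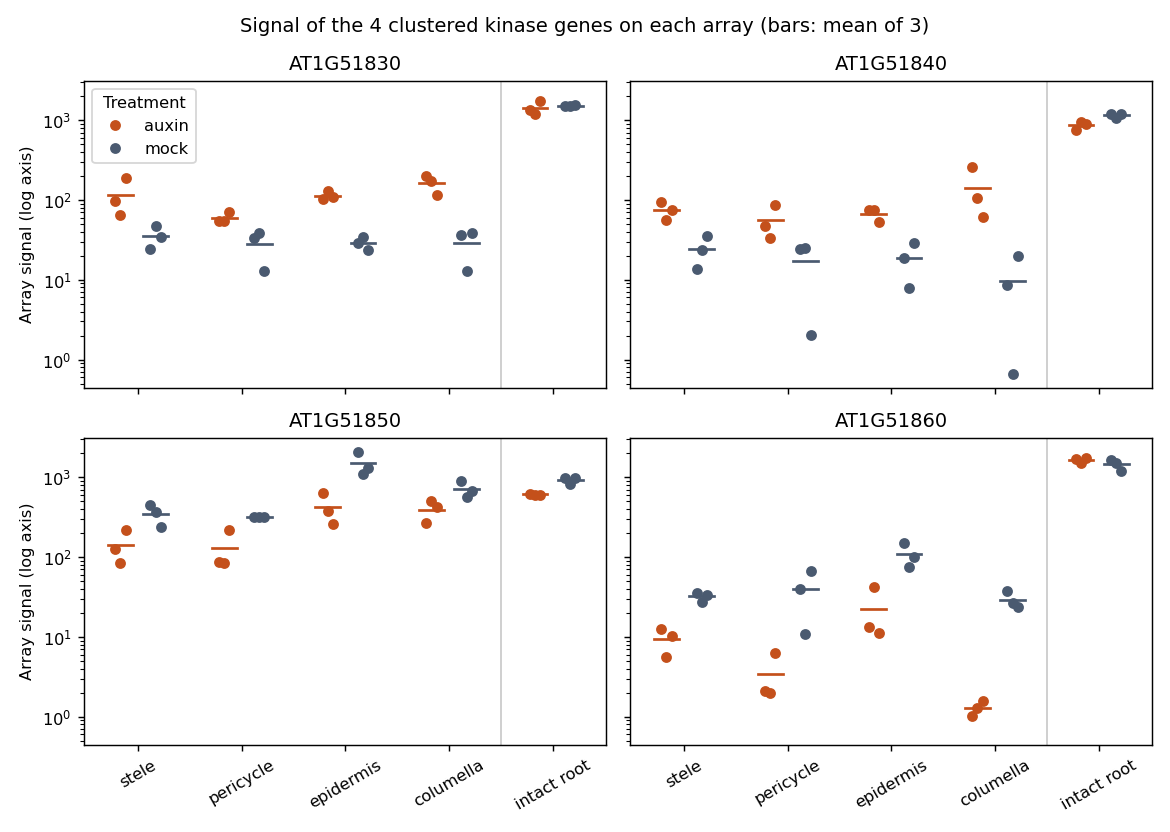
Signal of each of the 4 genes on each array (vertical log axis, array units) by sample type, with auxin arrays in orange left of mock arrays in blue-grey and a bar at the mean of 3 arrays. Auxin and mock points separate upward for AT1G51830 and AT1G51840 and downward for AT1G51850 and AT1G51860 in all 4 sorted tissues, and intact roots stand far above the sorted tissues for 3 of the genes.

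AT1G51830 had signals of 95.8, 65.3 and 188 in auxin-treated stele, against 24.6, 47.2 and 34.2 in mock stele. In the pericycle they were 54.6, 54.7 and 70.4 with auxin, against 33.4, 38.4 and 12.8 in mock cells. The epidermis gave 104, 128 and 108 with auxin, against 29.2, 34.8 and 23.5 in mock cells. In all of these tissues the lowest auxin array lay above the highest mock array, by the widest margin in the epidermis. The columella had the highest sorted signals, 199, 173 and 114 with auxin, against 36.6, 12.8 and 38.2 in mock cells. Intact roots gave 1332, 1213 and 1729 with auxin and 1522, 1529 and 1533 with mock treatment, and these ranges overlapped. The gene's mean log2 difference between auxin and mock over the 4 sorted tissues was 1.41 ± 0.15. It was 2.00 ± 0.29 in columella, 1.52 ± 0.29 in epidermis and 1.28 ± 0.29 in stele, all called. The pericycle difference of 0.83 ± 0.29 was not called, although it was called with a pseudocount of 1 (1.19), without pericycle mock replicate 2 (1.00) and, at 0.83, without stele auxin replicate 2, stele auxin replicate 3 or columella mock replicate 2. In intact roots the difference was -0.12 ± 0.29 and was not called.

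AT1G51840, the next gene along the chromosome, had 94.0, 55.9 and 74.1 units in auxin-treated stele, against 13.8, 23.8 and 35.3 in mock stele. The pericycle gave 47.3, 33.5 and 87.0 with auxin, against 24.3, 24.7 and 2.05 in mock cells. Auxin and mock ranges did not overlap in either tissue, though the pericycle ranges came within 10 units of each other. Epidermis cells had 74.7, 74.6 and 52.3 with auxin, against 18.8, 7.80 and 29.0 in mock cells. Columella cells had 259, 107 and 61.1 with auxin, against 8.66, 0.660 and 19.6 in mock cells, the widest spread among auxin arrays for this gene. Intact roots had 748, 939 and 904 with auxin and 1200, 1054 and 1210 with mock treatment. All auxin arrays of intact roots thus lay below all mock arrays, opposite to the sorted tissues. The log2 differences were 2.49 ± 0.36 in columella, 1.30 ± 0.36 in epidermis, 1.18 ± 0.36 in stele and 1.15 ± 0.36 in pericycle, all called. The intact root difference of -0.42 ± 0.36 was not called, but it was when only the intact root arrays were fitted. The mean over the sorted tissues was 1.53 ± 0.18.

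Several of these calls for AT1G51840 rested on single arrays. The stele call was lost without stele mock replicate 1 (0.98) or stele auxin replicate 1 (1.03) and with a pseudocount of 1 (1.64). The pericycle call was lost without pericycle mock replicate 3 (0.76), auxin replicate 1 (1.21) or auxin replicate 3 (0.86), with array weights (0.90), with a pseudocount of 64 (0.55) and, at 1.15, when only the pericycle arrays were fitted. The epidermis call was lost without epidermis mock replicate 2 (1.06) or auxin replicate 2 (1.24) and with a pseudocount of 1 (1.96). With a pseudocount of 1 the columella difference was 4.12 and with 64 it was 1.38, and both were called.

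AT1G51850 was well above the low end of the scale everywhere. Auxin-treated stele had 127, 84.1 and 218 units, against 444, 368 and 238 in mock stele. The pericycle had 86.4, 85.2 and 221 with auxin, against 322, 317 and 319 in mock cells. In both inner tissues 1 auxin array, replicate 3, came much closer to the mock arrays than the other two. Epidermis cells had 629, 384 and 260 with auxin, against 2073, 1090 and 1316 in mock cells, the highest signals of this gene in the study. Columella cells had 265, 500 and 420 with auxin, against 912, 574 and 681 in mock cells. Intact roots had 627, 599 and 606 with auxin, against 991, 823 and 995 with mock treatment, again without overlap. The log2 difference was -1.81 ± 0.31 in epidermis, -1.31 ± 0.31 in pericycle and -1.25 ± 0.31 in stele, all called as lower. In columella it was -0.87 ± 0.31 and in intact roots -0.60 ± 0.31, and neither was called, although the intact root difference was when only the intact root arrays were fitted. The mean over the 4 sorted tissues was -1.31 ± 0.16.

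AT1G51860 was near or below the low end of the scale in most sorted cells, mock epidermis excepted, and lower with auxin. Its signals were 12.7, 5.53 and 10.4 in auxin-treated stele, against 36.0, 27.5 and 33.3 in mock stele. The pericycle had 2.10, 1.97 and 6.25 with auxin, against 40.2, 11.0 and 66.8 in mock cells. Most of these values lie in the lowest part of the array, where ratios are uncertain. Epidermis cells had 13.3, 41.9 and 11.2 with auxin, against 152, 75.1 and 101 in mock cells. Columella cells had 1.02, 1.29 and 1.59 with auxin, against 37.2, 26.5 and 23.5 in mock cells. Intact roots had 1713, 1503 and 1732 with auxin and 1630, 1519 and 1208 with mock treatment, and these ranges overlapped. The log2 differences were -1.76 ± 0.31 in epidermis, -1.37 ± 0.31 in columella, -1.37 ± 0.31 in pericycle and -0.92 ± 0.31 in stele, all called as lower. In intact roots the difference was 0.19 ± 0.31 and was not called, and the sorted mean was -1.36 ± 0.15.

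The size of the AT1G51860 difference depended on the pseudocount, as the signals were small. In columella it was -3.69 with a pseudocount of 1 and -0.51 with 64, and the second was not called. In stele the call was lost with a pseudocount of 64 (-0.39) and without stele mock replicate 1 (-0.87), stele mock replicate 3 (-0.91) or stele auxin replicate 2 (-0.80). In the pericycle it was lost when only the pericycle arrays were fitted, at -1.37.

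**Figure D2:**
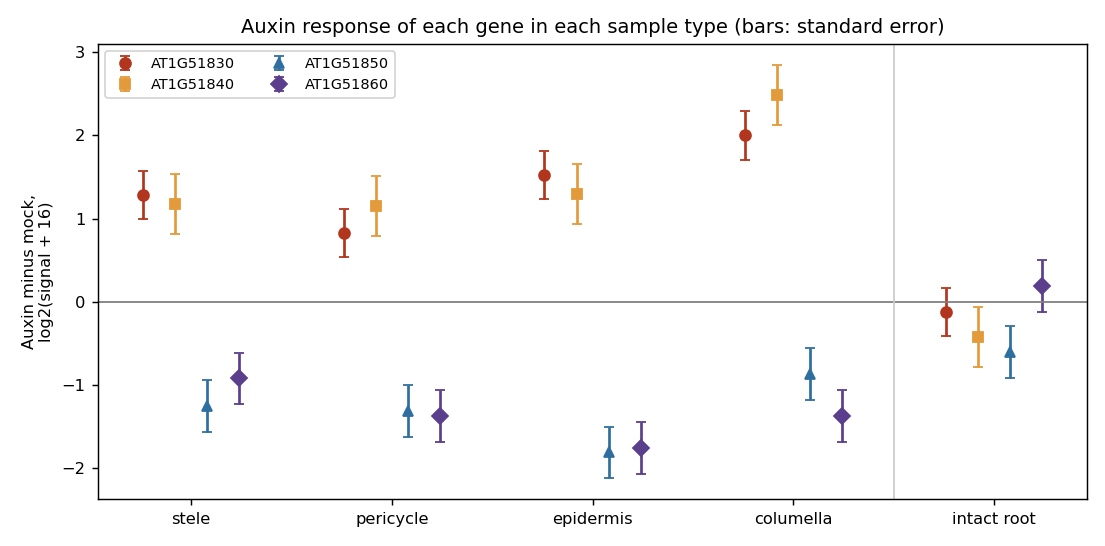
Auxin minus mock difference (vertical axis, log2(signal + 16)) of each gene in the 4 sorted tissues and in intact roots; bars are standard errors from the limma fit. AT1G51830 and AT1G51840 lie between 0.83 and 2.49 in the sorted tissues, AT1G51850 and AT1G51860 between -1.81 and -0.87, and all 4 lie between -0.60 and 0.19 in intact roots.

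Against the background of all genes tested, the calls were distributed as follows. In stele 24.4% of the 9321 genes were called, and all 4 kinase genes were, 2 higher and 2 lower. Without stele mock replicate 1, AT1G51840 and AT1G51860 were not called there, which left 2 of the 4. In the pericycle 12.3% of all genes and 3 of the 4 were called. The epidermis had 12.8% of all genes and all 4 called, and the columella had 7.09% of all genes and 3 of the 4 called. The mean response over the sorted tissues was called for 41.2% of all genes, 25.0% as higher and 16.2% as lower, and for all 4 genes. In intact roots 12.0% of all genes were called, 6.61% as higher and 5.34% as lower, and none of the 4. With only the intact root arrays fitted, AT1G51840 and AT1G51850 were called.

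Among the 9321 genes ordered by their mean sorted response, AT1G51840 was at place 59 and AT1G51830 at place 74 from the top. AT1G51860 was at place 112 and AT1G51850 at place 120 from the bottom. Neighbouring genes of similar family thus lay towards both ends of the same ranking. Over the 8 sorted group means, AT1G51830 and AT1G51840 had a Pearson r of 0.97, and AT1G51850 and AT1G51860 one of 0.78. Between the pairs, r ran from -0.76 for AT1G51840 with AT1G51860 to -0.43 for AT1G51830 with AT1G51850. These coefficients describe 8 points that share arrays and treatment, and carry no test. Over 30 deviations from group means, r was 0.58 for AT1G51830 with AT1G51840, and -0.13 to 0.3 for the other pairs. AT1G51840 is listed with 1463 bases, against 3501 for AT1G51830, 4117 for AT1G51850 and 4392 for AT1G51860. As binding to a neighbour's transcripts was not tested, AT1G51830 and AT1G51840 are not taken as independent of each other.

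The response was then compared between sample types. The difference of the intact root response from the mean sorted response was -1.52 ± 0.33 for AT1G51830, -1.95 ± 0.40 for AT1G51840 and 1.55 ± 0.35 for AT1G51860, all called. For AT1G51850, whose signal was lower with auxin in both kinds of sample, it was 0.71 ± 0.35 and was not called, though it was called with array weights (0.74). Of all genes, 11.1% were called in this comparison. An F-test of whether the response differed among the 4 sorted tissues called 2.59% of all genes and none of the 4. The larger columella differences of AT1G51830 and AT1G51840 and the larger epidermis differences of AT1G51850 and AT1G51860 were therefore not called as differences between tissues.

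Mock-treated samples were compared next. In 12 mock arrays of sorted tissues AT1G51830 had signals of 12.8 to 47.2 with a median of 33.8, against 1522 to 1533 in 3 mock arrays of intact roots. AT1G51840 had 0.660 to 35.3 with a median of 19.2 in sorted tissues, against 1054 to 1210 in intact roots. AT1G51860 had 11.0 to 152 with a median of 36.6 in sorted tissues, against 1208 to 1630 in intact roots. The sorted and intact ranges of these 3 genes were far apart. AT1G51850 differed from them, with 238 to 2073 and a median of 509 in sorted tissues, against 823 to 995 in intact roots, and its ranges overlapped. By tissue, its stele (238 to 444) and pericycle (317 to 322) arrays lay below all intact ones. Its columella arrays (574 to 912) overlapped them and its epidermis arrays (1090 to 2073) lay above.

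On the log2 scale, mock sorted tissues minus mock intact roots gave -5.09 ± 0.23 for AT1G51830, -5.21 ± 0.29 for AT1G51840, -4.60 ± 0.24 for AT1G51860 and -0.67 ± 0.25 for AT1G51850, all called as lower. The last call was lost with arrays centred on their 75th percentile (-0.54) and without intact root mock replicate 1 or 3 (-0.63 each). In this comparison 61.0% of all genes were called, 30.2% as higher and 30.8% as lower. The size of these differences depended on the pseudocount: with a pseudocount of 1 and of 64 it was -5.69 and -4.08 for AT1G51830, -6.39 and -3.91 for AT1G51840, and -5.08 and -3.76 for AT1G51860. In all, 64 genes, or 0.687%, were more than 16-fold lower in mock sorted tissues on this scale. Of these 64, 16 were called as higher and 3 as lower with auxin in the sorted mean, against 25.0% and 16.2% of all genes. The 64 were picked by their low mock level in sorted tissues, and near the low end of the scale a further fall is hard to call. Nothing is therefore read from how few were called as lower. AT1G51830 and AT1G51840 were among the 16 and AT1G51860 among the 3.

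**Figure D3:**
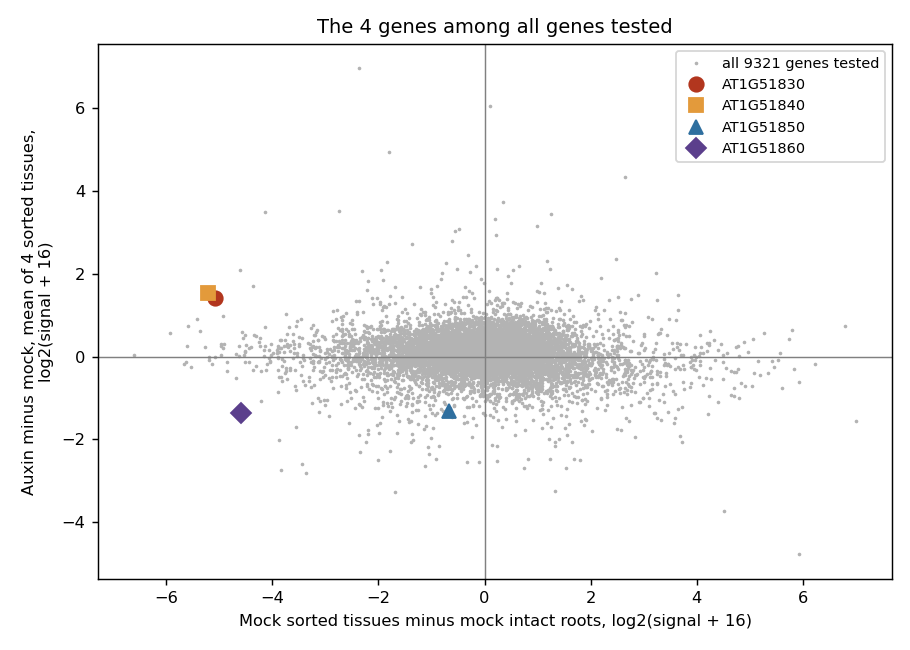
Mean auxin response of the 4 sorted tissues (vertical axis) against the mock level of sorted tissues minus that of intact roots (horizontal axis), both as log2(signal + 16) differences, for 9321 genes (grey) and the 4 kinase genes (coloured). AT1G51830 and AT1G51840 lie at the upper left (1.41 and 1.53 at -5.09 and -5.21), AT1G51860 at the lower left (-1.36 at -4.60) and AT1G51850 below the centre (-1.31 at -0.67).

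With auxin, too, the sorted tissues stayed below intact roots for 3 of the 4. AT1G51830 ran from 54.6 to 199 over the 12 auxin arrays of sorted tissues, against 1213 to 1729 on the auxin arrays of intact roots. AT1G51840 ran from 33.5 to 259 in auxin-treated sorted tissues, against 748 to 939 in auxin-treated intact roots. AT1G51860 ran from 1.02 to 41.9 in the sorted auxin arrays, against 1503 to 1732 in the intact ones. For all of these the highest sorted array stayed below the lowest intact array. AT1G51850 ran from 84.1 to 629 in sorted auxin arrays, against 599 to 627 in intact ones, so that 1 epidermis array exceeded the intact range.

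Among mock sorted tissues, 35.0% of all genes differed by the F-test, and AT1G51850 and AT1G51860 were the 2 called of the 4. Mock epidermis cells had a higher level of both than the mean of the other 3 tissues. For AT1G51850 that difference was 1.72 ± 0.26, with a mean signal of 1493 ± 515 in epidermis, against 723 ± 173 in columella, 350 ± 104 in stele and 319 ± 2.61 in pericycle (SD, n = 3 each). Its stele and pericycle levels were each lower than the mean of the other 3 tissues, with differences of -0.99 ± 0.26 and -1.11 ± 0.26. For AT1G51860 the epidermis difference was 1.35 ± 0.25, with a mean signal of 109 ± 39.3, against 39.4 ± 27.9 in pericycle, 32.3 ± 4.33 in stele and 29.1 ± 7.19 in columella. All 3 epidermis arrays lay above the other 9 mock arrays for both genes. AT1G51830 and AT1G51840 showed no called difference among mock tissues, with all their group means under 36 units.

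The order of the 10 groups by mean log2 signal differed from gene to gene. AT1G51830 was highest in intact roots, mock and auxin overlapping, then in columella, epidermis, stele and pericycle cells with auxin, whose neighbours overlapped, and lowest in the mock sorted groups, which lay apart from those with auxin. AT1G51840 was highest in mock intact roots, apart from auxin-treated intact roots, then in auxin-treated columella, stele, epidermis and pericycle, whose neighbours overlapped. Its pericycle auxin arrays (33.5 to 87.0) overlapped the stele mock arrays (13.8 to 35.3), the first of the mock sorted groups. AT1G51850 was highest in mock epidermis, apart from mock intact roots, and lowest in auxin-treated stele and pericycle, which overlapped each other and lay apart from mock pericycle. AT1G51860 was highest in intact roots, then in mock epidermis, which lay apart from all other sorted groups, and lowest in auxin-treated columella.

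The other genes of the run were looked at next. The 4 were picked as neighbours, so their lying side by side is part of the choice and not a result. In the RefSeq gene table of TAIR10.1 the 4 are consecutive entries, numbers 8 to 11 in a stretch of 18 between AT1G51790 and AT1G51915. Of the 9 other receptor kinase genes listed for the run, 6 had a named probe set and 3 could be tested: AT1G51790, AT1G51820 and AT1G51890. IOS1, AT1G51870 and RHS6 had no named probe set and were not analysed here. AT1G51805, AT1G51810 and AT1G51910 did not pass the filter on low values, with highest signals of 78.9, 33.4 and 26.2 over all 30 arrays.

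AT1G51790, at the start of the run, was lower in sorted tissues than in intact roots and lower again with auxin in the sorted mean. With auxin its signals averaged 132 ± 55.6 in epidermis, 88.1 ± 10.3 in columella, 38.1 ± 22.5 in stele and 50.2 ± 30.2 in pericycle cells, against 868 ± 88.6 in auxin-treated intact roots. Mock signals averaged 400 ± 126 in epidermis, 174 ± 53.7 in columella, 92.5 ± 27.9 in stele and 89.8 ± 63.9 in pericycle cells, against 921 ± 94.9 in mock intact roots. Every mock sorted array lay below every mock intact root array, with a log2 difference of -2.51 ± 0.29 (limma adjusted p = 1.97e-09). The mean sorted auxin response of AT1G51790 fell by 0.99 ± 0.18 on the log2 scale (limma adjusted p = 4.18e-05), and the intact root difference of -0.08 ± 0.37 was not called (adjusted p = 0.945). Mock levels of AT1G51790 differed among sorted tissues (moderated F = 14.08, limma adjusted p = 3.92e-05), with epidermis 1.73 ± 0.30 above the mean of the other tissues. The difference between the intact and sorted auxin responses, 0.91 ± 0.41, was not called (adjusted p = 0.160).

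AT1G51890, beyond RHS6, shared the gap between sorted and intact samples, and its auxin response was not called in the sorted mean. Its mock signal lay between 0.750 and 23.8 in sorted tissues, against 393, 407 and 519 in intact roots. The log2 difference was -4.10 ± 0.27, with all 12 sorted arrays below the 3 intact arrays. On no sorted array was AT1G51890 above percentile 31.1, against 78.5 to 84.4 on the intact arrays. It passed the filter on low values only through intact roots, so no p-value is given for this gap. Its mean sorted auxin difference was -0.18 ± 0.17 (limma adjusted p = 0.416). With auxin its sorted signals ran from 0.456 to 30.4, so both arms lay at the low end of the scale. A fall could hardly be seen there. AT1G51820, which lies before AT1G51830 in the run, stayed between 4.13 and 54.3 units on all 30 arrays and was called in no comparison of auxin with mock or of sorted with intact samples. The calls of AT1G51790 in the sorted mean and in mock sorted against intact samples held under every alternative run. The AT1G51890 gap ran from -5.48 to -2.74 over the alternatives and, given the filter, is a description only.

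**Figure D4:**
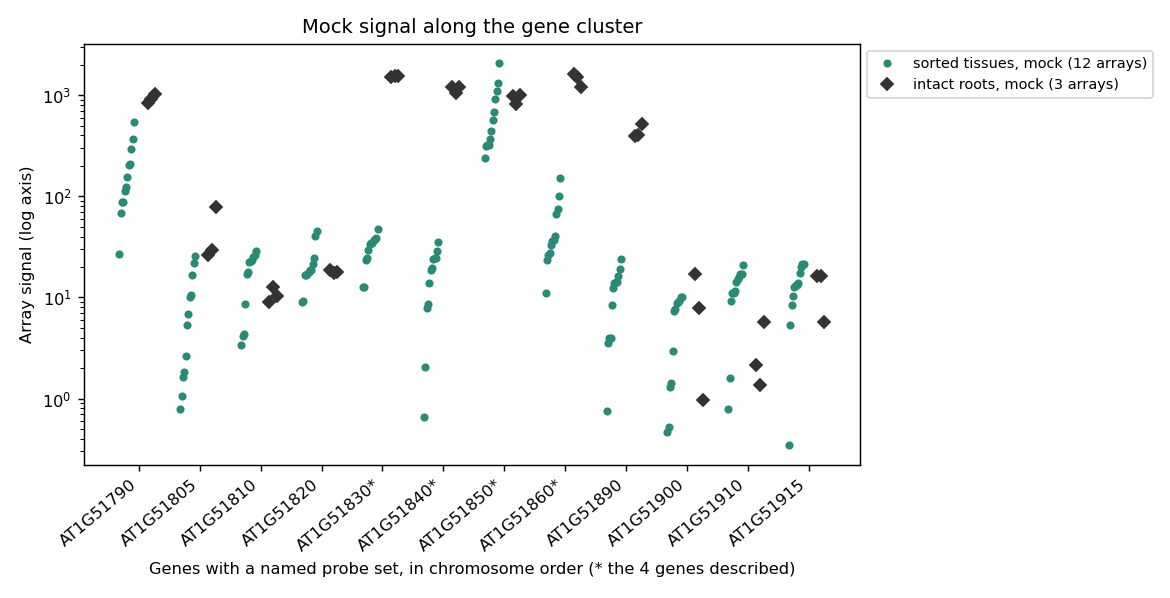
Mock signal (vertical log axis, array units) along the gene run for the genes with a named probe set, in chromosome order; green points are 12 mock arrays of sorted tissues, drawn in order of signal, and dark diamonds 3 mock arrays of intact roots. Sorted and intact arrays separate widely for AT1G51830, AT1G51840, AT1G51860 and AT1G51890. They overlap for AT1G51850 with the sorted tissues pooled, though its stele and pericycle arrays lie below the intact ones. Levels should be compared within a gene.

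Other LRR-I receptor kinase genes, outside the run, were taken from a list of 33 loci, of which 26 had a named probe set and 18 were tested. In mock samples 12 of the 18 were lower and 4 higher in sorted tissues than in intact roots, with a median difference of -1.75 against 0.01 over all genes, of which 30.8% were called as lower and 30.2% as higher. AT5G59680 had the largest gap of the 18, with mean mock signals of 11.3 to 19.3 in the 4 sorted tissues, against 1564 ± 266 in intact roots. Its log2 difference was -5.63 ± 0.27. AT1G49100 (-3.76 ± 0.29) and AT1G07560 (-3.72 ± 0.21, adjusted p = 1.84e-17 in limma) were lower too. AT3G46400 was higher (1.33 ± 0.34, limma adjusted p = 0.000929). The mean percentiles of AT5G59680 and AT1G49100 in sorted groups were at most 31.1 and 33.5. Their tests rested on high intact root signals to pass the filter, so no p-value is given for them. The 12 called as lower include such genes, for which the filter favoured that direction. The count of 12 and the median of -1.75 are therefore a description, and nothing is read from them against all genes.

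With auxin, 7 of these 18 genes fell and 3 rose in the sorted mean, with a median difference of -0.25 against 0.09 over all genes, of which 16.2% were called as lower and 25.0% as higher. AT3G21340 fell by 2.48 ± 0.16 on the log2 scale (limma adjusted p = 3.34e-15), with mean signals of 6.83 with auxin against 151 mock in stele and 13.6 with auxin against 229 mock in epidermis. AT3G46400 fell by 2.15 ± 0.21 (adjusted p = 3.11e-10) and AT1G05700 by 1.61 ± 0.18 (adjusted p = 6.56e-09 in limma). The 3 that rose in the sorted mean were AT5G48740 (0.69 ± 0.16, adjusted p = 0.0005), AT4G29990 (0.48 ± 0.16, adjusted p = 0.0185) and AT1G67720 (0.46 ± 0.14, adjusted p = 0.0087 in limma). They were not tested against AT1G51830 and AT1G51840, which had been chosen from these same arrays. The AT4G29990 call was lost with quantile normalization. In intact roots 3 of the 18 fell and 0 rose, with a median of -0.34 against -0.02 over all genes, of which 5.34% were called as lower and 6.61% as higher. Those that fell were AT3G21340 (-1.40 ± 0.32, adjusted p = 0.00198), AT3G46400 (-1.33 ± 0.43, adjusted p = 0.033) and AT1G07560 (-1.23 ± 0.27, adjusted p = 0.00117 in limma). The AT3G46400 call in intact roots was lost with quantile normalization, with a pseudocount of 64 and without intact root mock replicate 1 or 3 or intact root auxin replicate 2 or 3, and its value over all alternatives ran from -2.36 to -0.62.

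**Figure D5:**
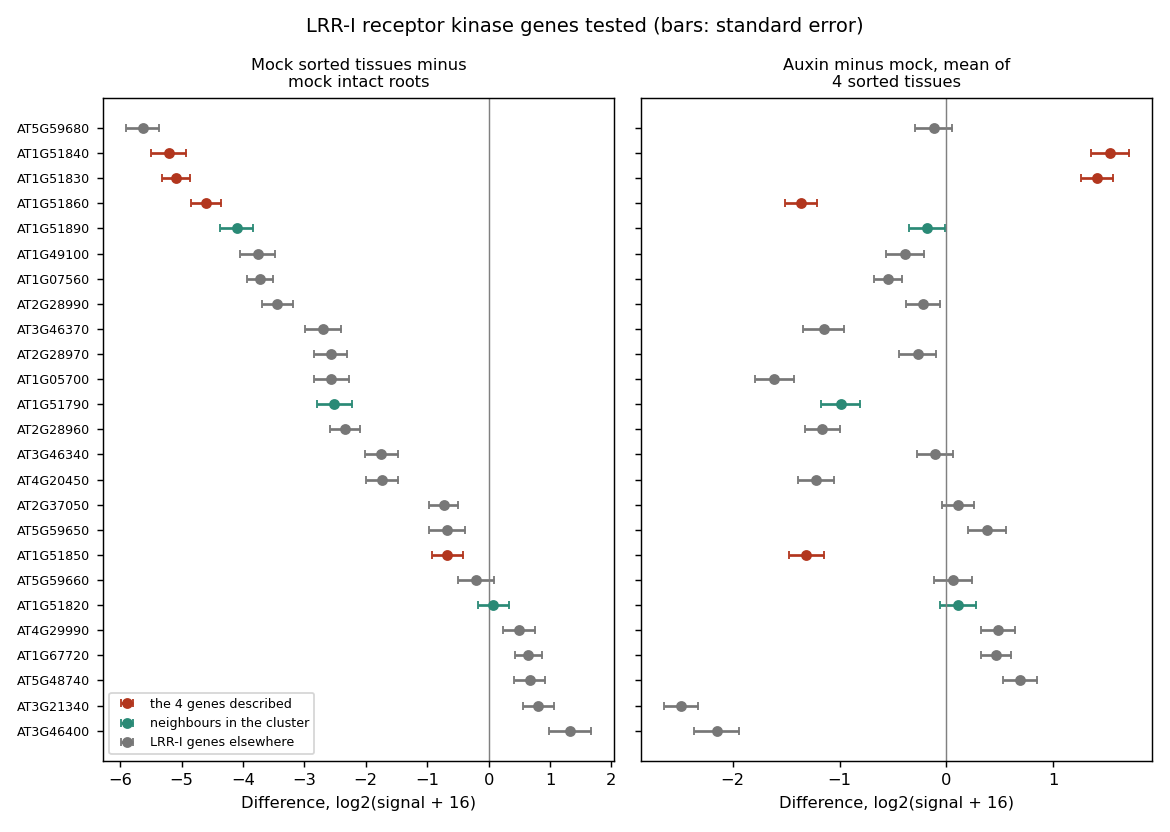
Tested LRR-I receptor kinase genes, one per line: mock sorted tissues minus mock intact roots (left) and mean auxin minus mock difference of the 4 sorted tissues (right), as log2(signal + 16) differences with standard errors; the 4 clustered genes are red, their neighbours green and other genes grey. AT1G51830 and AT1G51840 stand at 1.41 and 1.53 on the right. The red genes had been chosen from these same arrays, so their place among the others is not a result.

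Genes of immune signalling were poorly covered. Of 18 receptors and partners listed, 5 had a named probe set and 4 were tested, and of 22 early output genes 3 were named and tested. STZ, a zinc finger repressor of stress responses, was higher in mock sorted tissues than in mock intact roots, by 3.62 ± 0.20 (limma adjusted p = 1.08e-17). Its mean signals there were 754 to 1136 in the 4 sorted tissues, against 57.5 ± 22.7 in intact roots. WRKY53 (1.51 ± 0.25, adjusted p = 3.54e-06) and WRKY22 (0.68 ± 0.24, adjusted p = 0.0159 in limma), both WRKY transcription factors of defence, were higher too in the mean of the sorted tissues. The WRKY22 call was lost without intact root mock replicate 1. Mean WRKY22 signals were 95.0 in mock pericycle, 118 in epidermis and 143 in columella, against 56.6 ± 34.5 in mock intact roots. In mock stele WRKY22 was not above intact roots, with 42.6 ± 14.5. Of all genes, 30.2% were called as higher in this comparison.

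Among the receptors, the lectin receptor kinase gene SD1-29 was higher in mock sorted tissues (1.90 ± 0.20, limma adjusted p = 2.32e-10). BIK1, a cytoplasmic kinase that relays signals of immune receptors, was lower in the mean of the mock sorted tissues (-1.02 ± 0.21, adjusted p = 5.19e-05). AT4G08850 was lower too (-1.06 ± 0.16, adjusted p = 2.84e-07 in limma). Mean BIK1 signals were 131 in mock stele, 132 in epidermis and 182 in columella, against 429 in mock intact roots. In mock pericycle BIK1 was above intact roots, with 476 to 623 units against 419 to 447. FER, the malectin-like receptor kinase FERONIA, was not called there (-0.38 ± 0.18, limma adjusted p = 0.0643). With auxin, BIK1 rose by 0.56 ± 0.13 (adjusted p = 0.000751) and AT4G08850 fell by 0.47 ± 0.10 (adjusted p = 0.000248 in limma) in the sorted mean. Mean AT4G08850 signals were 182 with auxin against 501 mock in stele, 684 against 1076 in epidermis and 581 against 791 in columella. In pericycle they went the other way, 1713 against 1176. FER also fell in the sorted mean, by 0.30 ± 0.11 (limma adjusted p = 0.0338), a call lost under 13 of 41 alternatives. Its mean signals were 1192 with auxin against 2371 mock in stele and 1924 against 2184 in epidermis. They were close in pericycle (1710 against 1734) and columella (1671 against 1713). Of 13 salicylic acid genes listed 1 was tested, SAG101, which was lower in mock sorted tissues (-0.85 ± 0.20, limma adjusted p = 0.00048), and none of 14 jasmonate and wounding genes had a named probe set.

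The named markers of root hair cells were lower with auxin in the sorted mean, as AT1G51850 and AT1G51860 were. No correlation of these markers with the kinase genes was computed. EXPA7 and EXPA18 fell with auxin in the sorted mean by 1.84 ± 0.17 and 2.81 ± 0.18 (limma adjusted p = 5.61e-11 and 2.55e-15) and were not called in intact roots (0.26 ± 0.34 and -0.09 ± 0.36). Their summed signal was 29.9 to 55.1 in auxin-treated epidermis, against 508 to 708 in mock epidermis, and 1896 to 2157 in auxin-treated intact roots, against 1930 to 2161 in mock intact roots. In mock samples both were lower in sorted tissues than in intact roots, by -1.66 ± 0.27 and -3.36 ± 0.28 (limma adjusted p = 1.81e-06 and 8.32e-13). The 3 photosynthesis genes used as a sign of shoot tissue were all named, with a summed signal of 374 to 1003 in auxin-treated sorted tissues, against 173 to 535 in mock ones. In intact roots their sum was 565 to 751 with auxin, against 1342 to 1883 with mock treatment. Of 6 cortex and endodermis markers listed 3 were named, with sums of 234 to 696 in auxin-treated and 135 to 792 in mock sorted tissues. In intact roots their sums were 412 to 533 with auxin, against 1138 to 1280 with mock treatment. The part of these cell types in the values of the 4 kinase genes was not tested.

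Genes with a pattern most like that of the 4 were ranked by Pearson r over the 10 group means. This r is dominated by the gap between intact and sorted samples, and it says nothing of function. For AT1G51830 the closest were AT5G08010 (0.992), AT1G51270 (0.988) and AT1G33050 (0.979). The same 3 genes were closest to AT1G51840, with r of 0.981, 0.980 and 0.982. Over the 8 sorted group means alone these genes had r of 0.88 to 0.96 with the pair. For AT1G51850 the closest were AT1G65180 (0.973), AT1G11660 (0.970) and AT4G25070 (0.961), each with r of 0.97 over the sorted means. For AT1G51860 they were AT3G46270 (0.982), AT2G20030 (0.982) and AT4G07990 (0.981). The mean of the 4 was most like AT1G24430 (0.988), AT5G01980 (0.986) and AT4G03020 (0.985), followed by AT5G38030, AT1G22040, AT1G36380, AT4G08690 (0.984 each) and AT3G13610 (0.983).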

How the data were processed

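The authors deposited 1 intensity per probe set and array on a linear scale for 22810 probe sets, by MAS5, per the submitters' processing notes. The sources used here give no MAS5 version, chip definition or build. RNA was amplified before labelling, per the labels' protocols. Probe sets were named by the platform annotation: 13513 have 1 gene, 503 several and 8730 none here, and 64 controls were dropped. Of the first, 13436 matched the RefSeq table of TAIR10.1, used only for names and gene order; no coordinates are given. Where a gene had several probe sets, the one with the highest mean log2 signal was used. Genes above the 40th percentile of their array in at least 3 arrays were tested.

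Log2(signal + 16) of all 30 arrays was fitted in limma 3.58.1 (R 4.3.3) with 10 group means and a trended prior (20 residual degrees of freedom, median residual SD 0.35). Contrasts compared auxin with mock per sample type and averaged over sorted tissues, intact with sorted responses, and mock levels between sorted tissues and against intact roots; F-tests compared the sorted tissues. All tests were two-sided, with Benjamini-Hochberg adjustment over 9321 genes. The fit was tested on simulated data. Fold changes on this scale understate those of low signals. With arrays, the number of replicates (3 per group) limits precision. The labels do not say whether samples of a group came from separate cultures, so p-values reflect only the spread between these samples and that spread may be technical. Median all-gene shifts were within 0.1 (log2) except 0.14 for the stele response, and with 75th percentile centring 0.13 for mock sorted against intact samples.

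The 4 genes, the lists and the tests were chosen with earlier results of these data known. Lists were written from general knowledge. Named genes were the 4, every tested gene of the run, up to 4 called genes and 2 others per list, and the genes most like the 4 in pattern. Groups were taken from the sample labels. Alternatives were 2 pseudocounts, 2 filters, quantile and 75th percentile scaling, fits of the compared groups only, array weights, no trend, a replicate block, the mean of all probe sets and each array left out. Plots were made with Python 3.11.15 and matplotlib 3.10.9.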

Additional observations from a re-analysis of the deposited data

Results flagged for a closer look

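For 3 of the 4 clustered genes the auxin response differed between intact roots and the mean of the sorted tissues by a test of that difference in the limma fit; since these genes had been chosen from these arrays, the values are a description. The intact root response minus the sorted response was -1.52 for AT1G51830 and -1.95 for AT1G51840, which were higher with auxin in sorted cells and not called in intact roots. It was 1.55 for AT1G51860, which was called as lower with auxin in sorted cells and was not called in intact roots.

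The same test called 6 of 30 tested genes of the other kinase, immune and epidermis lists, and 11.1% of all genes. Outside that count, it called as lower 3 of 3 photosynthesis genes and 2 of 2 tested cortex and endodermis markers. Of the 6 auxin-response check genes, 1 was called as higher and 2 as lower, and the tested salicylic acid gene was not called. The root hair expansins EXPA7 and EXPA18 had differences of 2.10 and 2.72 (limma adjusted p = 0.000155 and 5.79e-06), and the receptor kinase gene AT3G21340 had 1.08 (adjusted p = 0.0419 in limma), a call lost under 17 of 41 alternatives. WRKY53 had 2.12 (limma adjusted p = 6.25e-05), WRKY22 had -1.05 (limma adjusted p = 0.0396, lost under 13 of 41 alternatives) and BIK1 had -0.94 (limma adjusted p = 0.0293, lost without any one of the intact root arrays). Digestion, sorting and the time in IAA cannot be told apart between these sample types.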

How the results depend on the processing

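Of the values of the 4 genes under all alternatives, none changed direction past the threshold; 1611 kept their side of it, 21 lost a call and 8 gained one. The number of the 4 called in the pericycle was 1, and in intact roots 2, when only the groups compared were fitted, which leaves fewer arrays to estimate the spread. With 1 array left out the number called in stele ran from 2 to 4. The alternatives for the genes of the other lists were chosen after seeing the data.

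The share of all genes called moved by more than 1.5 times under some settings. Without the filter on low values it was 16% in stele, 8.13% in pericycle, 8.29% in epidermis, 4.38% in columella, 7.68% in intact roots, 6.93% for intact minus sorted responses, 23.1% for mock tissue differences and 1.62% for differences between tissue responses. With only the groups compared it was 4.15% in pericycle, 20.2% in intact roots and 1.45% for differences between tissue responses, and with array weights 6.89%, 21.9% and 4.69% for these, and 20.1% for intact minus sorted responses. In stele it was 16.2% without stele mock replicate 1 and 15.6% without stele auxin replicate 2. Differences between tissue responses were called for 1.71% with a pseudocount of 1, 4.58% with 64 and 1.59% without stele auxin replicate 2.

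Deviations of same-numbered auxin and mock arrays from their group means correlated between -0.012 and 0.375, not above 0.1 in every pair. The highest values were 0.375 in epidermis and 0.253 in columella, both for number 1. Arrays of different number were not compared, so these values do not settle whether the numbers pair the samples. A fit with the replicate block called the same number of the 4 in every comparison (4 in stele, 3 in pericycle, 4 in epidermis, 3 in columella and 0 in intact roots). It called 4.33% of all genes for differences between tissue responses, against 2.59% in the main fit.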
